A study of Mus musculus with 18 samples.

Results

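The Ms4a genes code for 4-span membrane proteins, and this account follows 7 of them (Ms4a1, Ms4a4b, Ms4a4c, Ms4a6b, Ms4a6c, Ms4a6d and Ms4a7) through the B cells of WT and Sh3gl1-/- mice. The 7 were a given list, matched by Ensembl identifier to the symbols of the GRCm38 annotation, out of 51912 genes measured and 19 genes with an Ms4a symbol. The genes were chosen by a rule that used the CD40L response of WT cells, where Ms4a6c had the largest test statistic of all genes (F of 1246). That response is therefore given as a description, without a test. All 7 genes passed the filter on low counts in every comparison below.

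RNA was sequenced from sorted B cells of C57BL/6 mice that were either wild type (WT) or Sh3gl1-/- littermates, which lack endophilin A2, a protein that bends membranes during endocytosis. In each genotype there were 3 states. Transitional B cells, the immature cells newly arrived in the spleen, and follicular B cells, the mature recirculating cells, were taken untreated, and follicular cells were also treated with CD40L, the T cell ligand of CD40, for 14 h per the labels. The study's own text speaks of overnight culture in 1 place and of a longer time in another. Each of the 6 groups had 3 mice, giving 18 libraries. Same-numbered transitional and follicular libraries of a genotype were later taken as paired, so that the groups need not be separate mice. The main tests took the libraries as unpaired. No Cre or cell type restriction of the deletion is named in the labels, so that other cells of a Sh3gl1-/- mouse share its genotype. The treated cells had been in culture and the untreated ones had not, so that CD40L and culture cannot be told apart.

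MS4A proteins cross the membrane 4 times, with both ends in the cytoplasm. The best known member, Ms4a1, codes for CD20, the B cell surface protein that associates with the B cell receptor and with CD40 and is the target of rituximab. Ms4a4b is known from T cells, where it modulates activation and proliferation, and Ms4a4a, Ms4a6d and Ms4a7 are known mainly from macrophages. The mouse genes lie side by side on chromosome 19, and several of them are recent duplicates of each other.

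The duplication shows in the sequences, which are given here because reads from near-identical stretches have to be divided between genes. On GRCm38 the 7 genes spanned 355.2 kb, 19:11249675-11604849. Ms4a4c (11404770-11427246), Ms4a4b (11443553-11467055), Ms4a6c (11469366-11482192) and Ms4a6b (11516512-11531256) followed one another on the plus strand, and Ms4a1 (11249675-11266241), Ms4a7 (11321039-11336146) and Ms4a6d (11586604-11604849) lay on the minus strand. The coding sequences of Ms4a4b and Ms4a4c, 678 bases each without the stop codon, were identical at 91.7% of aligned positions. Those of Ms4a6b and Ms4a6c were identical at 74.4% and those of Ms4a6b and Ms4a6d at 79.8%, whereas Ms4a1 was 43.2 to 47.2% identical to the other 6. The longest stretch of coding sequence shared without a mismatch was 127 bases in Ms4a4b and Ms4a4c (bases 321 to 447 of both, counted from the A of the start codon), 81 bases in Ms4a6b and Ms4a6d, and 55 bases in Ms4a6b and Ms4a6c (bases 389 to 443 of both).
Shared by Ms4a4b and Ms4a4c: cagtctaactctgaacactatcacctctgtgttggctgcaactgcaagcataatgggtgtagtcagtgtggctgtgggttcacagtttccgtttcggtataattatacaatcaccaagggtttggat
Shared by Ms4a6b and Ms4a6c: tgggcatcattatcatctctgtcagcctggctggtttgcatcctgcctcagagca

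These stretches were a small part of each gene. Of all 100-base windows of the annotated transcripts, 1.66% of those of Ms4a4c and 0.474% of those of Ms4a4b also occurred in another Ms4a gene, and none of those of Ms4a1, Ms4a6b, Ms4a6c, Ms4a6d or Ms4a7 did. With 50-base windows the share was 8.19% for Ms4a4c, 5.85% for Ms4a6c, 3.44% for Ms4a6b, 2.31% for Ms4a6d, 2.25% for Ms4a4b and 0% for Ms4a1 and Ms4a7. The read length is not given in the sources used here. Ms4a1 and Ms4a7 had whole-number counts in all 18 libraries, while Ms4a4b, Ms4a4c, Ms4a6b and Ms4a6c had fractional counts in all 18 and Ms4a6d in 17, as given when reads are divided between genes.

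Ms4a6c had a second, larger overlap. The gene BE692007 runs through it on the opposite strand, and 1088 of the 2050 exon bases of Ms4a6c (53.1%) are also exon of BE692007. Although the labels name a stranded library kit, the deposited counts appeared to be divided without regard to strand. Of 451 genes with at least 500 bases of exon overlap with an expressed gene of the opposite strand, and none with a gene of the same strand, 92.9% had fractional counts in 9 or more libraries, against 15.5% of 5822 genes without any overlap. The level of Ms4a6c is therefore an estimate of its part of reads shared with BE692007, and its values are given below alone and summed with those of BE692007. The shared bases are 20.8% of the 5236 exon bases of BE692007, so that the sum also holds reads of BE692007 alone. In ex vivo WT follicular cells BE692007 was at 342.9 ± 26.5 CPM and the sum at 362.2 ± 25.2 CPM. The sum is therefore no second estimate of Ms4a6c.

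Promoter windows, 250 bases before to 50 bases after a gene's RefSeq start, were at hand for 5 of the 7 genes (6 windows, GRCm38.p6). The 250 upstream bases of Ms4a6c (19:11469118-11469367, plus strand) and Ms4a6b (19:11518309-11518558, plus strand) are shown because Ms4a6c rose with CD40L in Sh3gl1-/- cells and its neighbour Ms4a6b did not pass the test. Capitals mark the longest run that both share, 48 bases, which lay 49 to 2 bases before the start of Ms4a6c and 118 to 71 bases before the start of Ms4a6b.
Ms4a6c: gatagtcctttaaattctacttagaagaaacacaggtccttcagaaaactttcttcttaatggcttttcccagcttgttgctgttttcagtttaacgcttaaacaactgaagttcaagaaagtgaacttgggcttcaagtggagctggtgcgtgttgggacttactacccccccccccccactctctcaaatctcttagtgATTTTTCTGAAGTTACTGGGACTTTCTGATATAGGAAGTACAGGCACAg
Ms4a6b: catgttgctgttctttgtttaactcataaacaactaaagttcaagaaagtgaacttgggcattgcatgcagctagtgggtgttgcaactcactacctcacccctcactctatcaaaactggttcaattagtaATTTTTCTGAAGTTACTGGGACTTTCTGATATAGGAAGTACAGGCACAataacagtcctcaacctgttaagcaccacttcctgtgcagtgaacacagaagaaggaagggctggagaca

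The upstream bases of the other close pair, Ms4a4c (19:11407411-11407660, plus strand) and Ms4a4b (19:11443308-11443557, plus strand), were identical at 69.0% of aligned positions. Capitals mark the matches to the motifs searched for. Both hold the PU.1 core (GAGGAA), 61 to 56 bases before the start in Ms4a4c and 64 to 59 bases before it in Ms4a4b, and Ms4a4c alone holds the octamer ATGCAAAT, on the other strand, as ATTTGCAT.
Ms4a4c: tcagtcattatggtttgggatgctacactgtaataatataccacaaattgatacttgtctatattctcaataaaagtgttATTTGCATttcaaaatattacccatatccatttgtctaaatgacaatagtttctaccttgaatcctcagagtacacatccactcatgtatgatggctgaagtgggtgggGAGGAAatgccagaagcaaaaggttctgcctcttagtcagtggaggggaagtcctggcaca
Ms4a4b: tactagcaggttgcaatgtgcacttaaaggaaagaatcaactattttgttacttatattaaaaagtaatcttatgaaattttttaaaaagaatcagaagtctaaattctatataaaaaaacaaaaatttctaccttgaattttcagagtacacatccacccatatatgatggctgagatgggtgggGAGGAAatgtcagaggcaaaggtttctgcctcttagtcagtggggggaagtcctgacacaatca

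Of 32851 promoter windows of the mouse genome, 28.3% held the PU.1 core and 1.74% the octamer, on either strand. The NF-kB consensus (8.46% of windows), the ISRE core (3.44%) and the GAS core TTCNNNGAA (8.30%) were in none of the 6 windows. One of the Ms4a7 windows held the PU.1 core after its start.

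The libraries held 12404665 to 18366011 counts. Sh3gl1 itself, 29.8 to 57.9 CPM in the 9 WT libraries, was 0.0716 to 1.76 CPM in the 9 Sh3gl1-/- libraries, as the labels say. CPM (counts scaled to the library size after TMM) are used to compare a gene between libraries, while TPM, which take account of transcript length, are used to compare genes. Cd79a, a signalling chain of the B cell receptor that defines B cells, was at 2614 to 5382 CPM. RNA of other cells was present and differed between groups. The summed level of 5 erythroid markers was 1277 to 2191 CPM in WT and 2460 to 5293 CPM in Sh3gl1-/- transitional cells, where all 4 that passed the filter were higher past the test, and 792.6 to 2139 and 1695 to 5217 CPM in follicular cells. That of 8 neutrophil markers was 52.8 to 97.1 and 111.5 to 565.7 CPM in transitional, 60.4 to 176.2 and 175.1 to 804.4 CPM in follicular and 9.37 to 39.8 and 50.8 to 191.8 CPM in CD40L-cultured cells. T cell, macrophage and B cell subset markers stand beside the genes that they moved with. In bulk samples, fewer cells of a type and less RNA per cell cannot be told apart.

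The 7 genes fell into 3 ranks of abundance. Ms4a1 and Ms4a4c were among the abundant transcripts of every group, Ms4a4b and Ms4a6b were at 16.0 to 122 TPM, and Ms4a6d and Ms4a7 were the least abundant. In WT transitional cells Ms4a1 was at 2012 ± 217 TPM (SD, n = 3) and Ms4a4c at 477 ± 52.8, with no overlap, and Ms4a4b (53.7 ± 11.8), Ms4a6b (52.6 ± 8.80) and Ms4a6c (48.4 ± 2.11) could not be ordered beyond their spread. In WT follicular cells Ms4a1 (1045 ± 52.4) was still above Ms4a4c (866 ± 8.71), and Ms4a4b (77.2 ± 9.02) and Ms4a6b (60.5 ± 12.1) overlapped, both above Ms4a6c (27.8 ± 2.22). After CD40L culture of WT cells Ms4a6c, at 561 ± 84.1, had moved to the third place behind Ms4a1 (914 ± 45.9) and Ms4a4c (766 ± 104). Ms4a7 (1.44 to 10.4) and Ms4a6d (1.15 to 5.84) had the lowest mean TPM in every group.

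In Sh3gl1-/- transitional cells Ms4a1 (1393 ± 363 TPM) was above Ms4a4c (467 ± 79.1), as in WT cells, but in both follicular states the order was the reverse. Ms4a4c was at 953 ± 38.6 TPM and Ms4a1 at 825 ± 41.1 in follicular cells, and at 1137 ± 102 and 871 ± 42.5 after CD40L culture, without overlap in either state. As a share of the summed TPM of the 7 genes, Ms4a1 made up 49.4 to 50.8% in WT follicular cells and 40.1 to 42.0% in Sh3gl1-/- follicular cells, and 35.0 to 43.8% and 28.9 to 33.8% after CD40L. In transitional cells the shares of Ms4a1 overlapped between the genotypes, 75.7 to 75.9% in WT and 60.2 to 76.6% in Sh3gl1-/- cells. These shares are descriptions, and the tests of the single genes follow below.

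**Figure D1:**
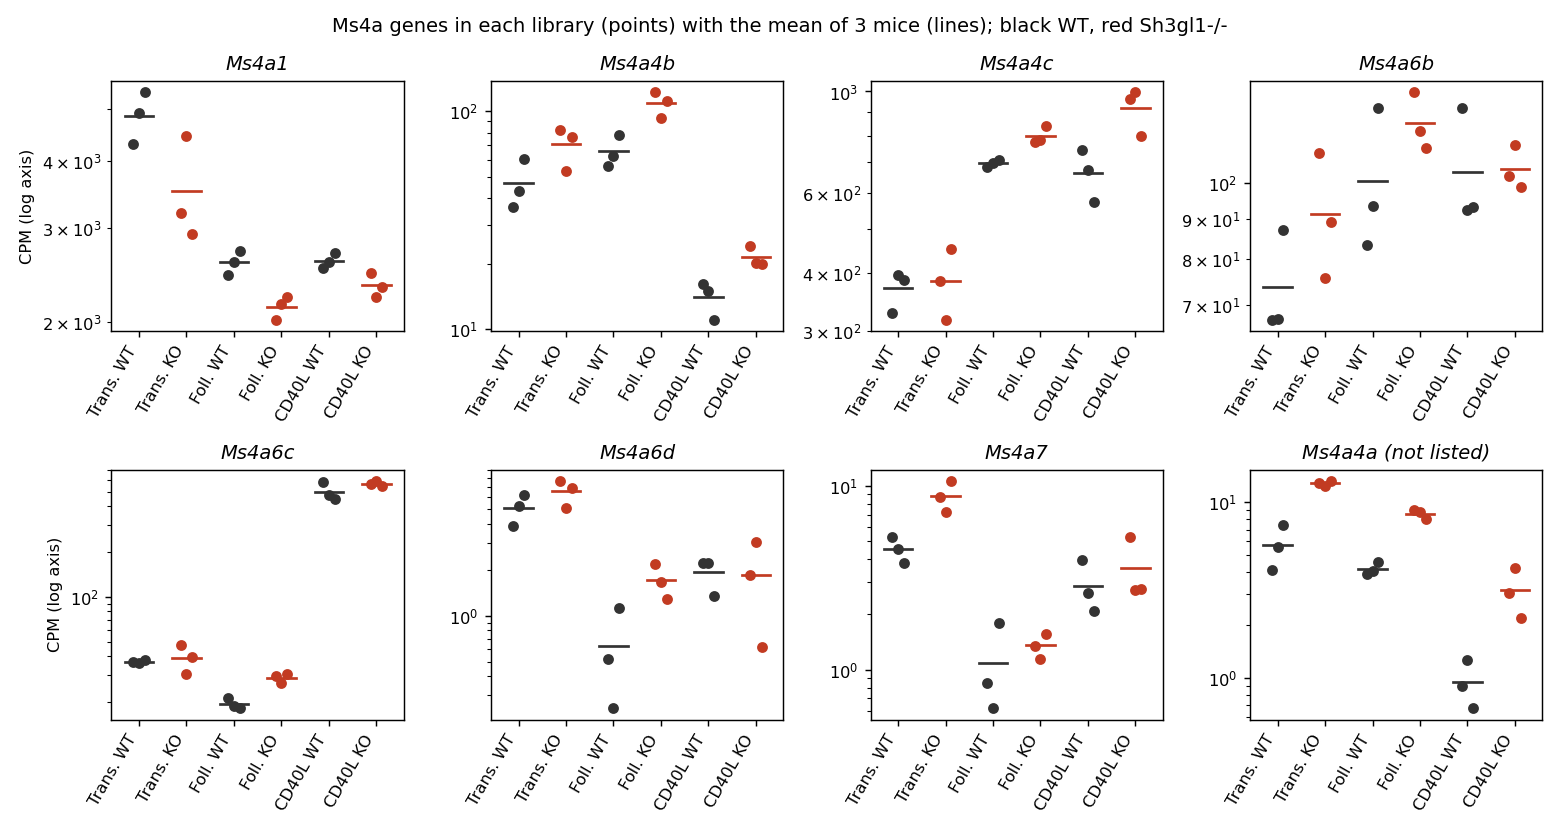
CPM on log axes of the 7 listed Ms4a genes and Ms4a4a in 18 libraries, by group (Trans. transitional, Foll. follicular ex vivo, CD40L follicular after CD40L culture, KO Sh3gl1-/-). Points are libraries and lines the means of 3 mice; Ms4a6c stood at 445.2 to 590.3 CPM in all 6 CD40L-cultured libraries and at 18.1 to 47.3 CPM in the other 12.

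**Figure D2:**
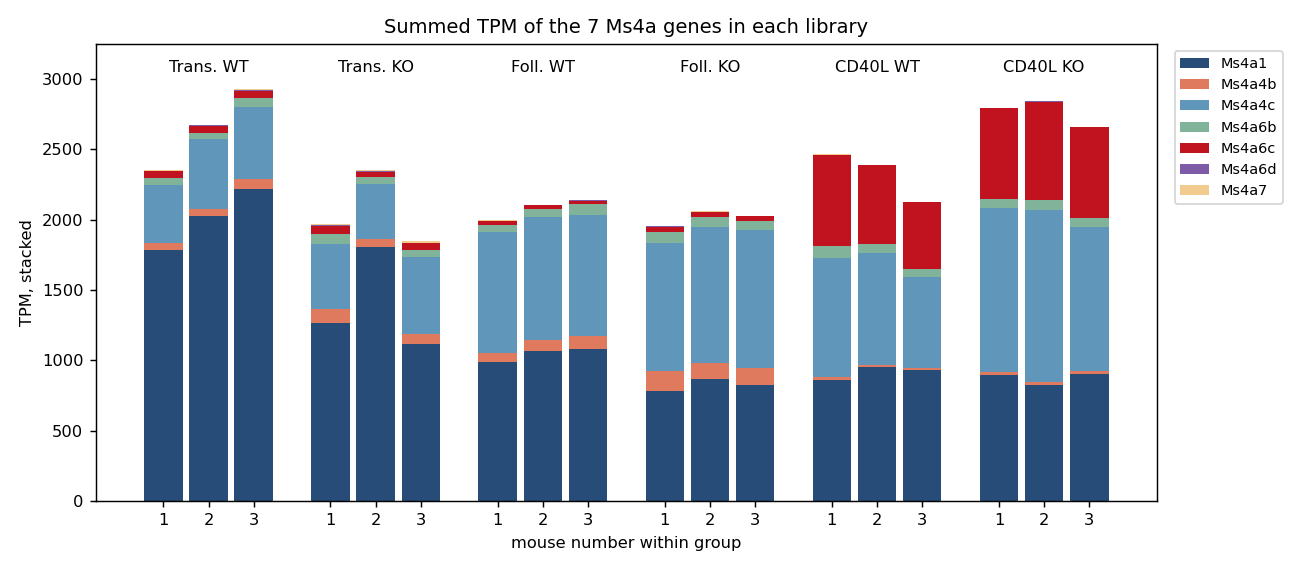
TPM of the 7 genes stacked for each library, by group and mouse number. Ms4a1 and Ms4a4c made up most of each bar, and the share of Ms4a6c was 22.4 to 26.2% after CD40L culture and at most 3.02% before it.

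Ms4a6c was many times higher after CD40L culture in both genotypes. The libraries of Sh3gl1-/- follicular cells shared the fit behind the choice of genes, through its filter and its estimate of spread. Their own change was not used, so that the test in them is partly but not wholly separate from the choice. In these cells Ms4a6c was at 29.5, 26.4 and 30.4 CPM ex vivo and at 567.1, 590.3 and 545.0 CPM after culture. The groups lay far apart, and the rise was 19.4-fold, a log2 fold change of 4.28 ± 0.12 (SE) with an adjusted p of 2.4e-09 by edgeR's quasi-likelihood test, the second largest statistic of 13499 genes. In WT cells it went from 21.3, 18.7 and 18.1 CPM to 582.5, 474.9 and 445.2 CPM, a log2 fold change of 4.67 ± 0.13. The antisense gene BE692007 went the other way. In Sh3gl1-/- cells it fell from 346.8 ± 6.58 CPM to 209.4 ± 42.3 (log2 fold change -0.75 ± 0.14, adjusted p = 0.00099 by edgeR). The sum of both was 368.7 to 381.3 CPM before and 723.0 to 847.7 CPM after culture, and still rose, by 1.03 ± 0.10 on the log2 scale (adjusted p = 7.5e-06 by edgeR). In WT cells the sum went from 345.6 to 391.3 CPM up to 570.5 to 794.3 CPM, a log2 fold change of 0.87 ± 0.12. The rise was thus smaller in the sum than in Ms4a6c alone and had the same direction.

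**Figure D3:**
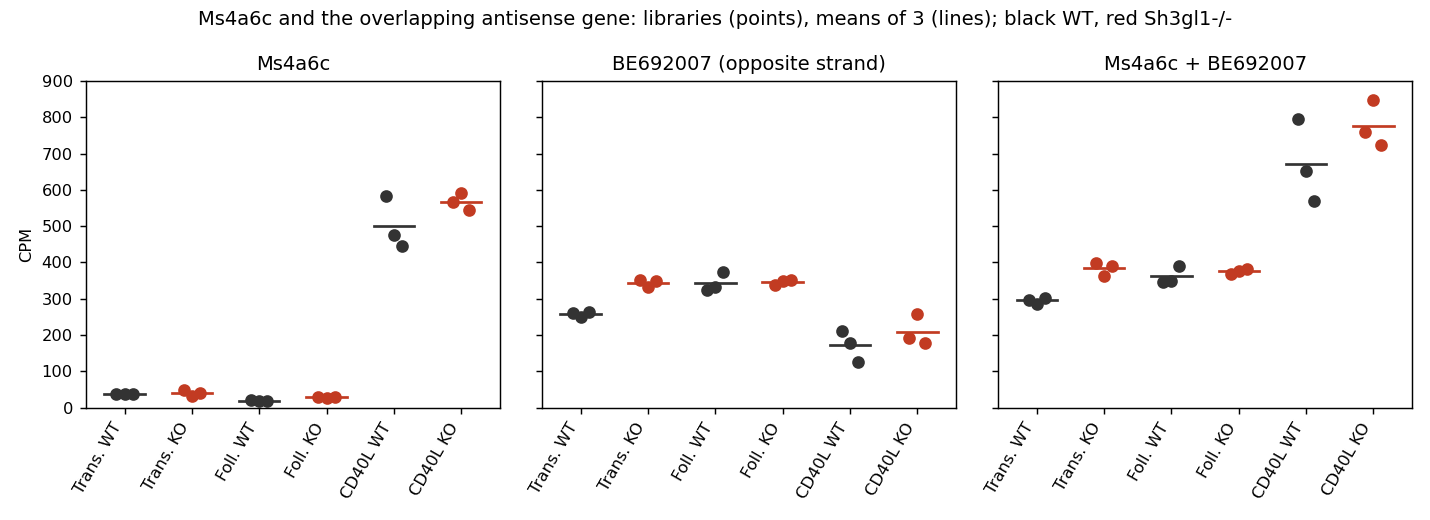
CPM of Ms4a6c, of BE692007, which overlaps it on the opposite strand, and of their sum in each library, by group, on linear axes. Points are libraries and lines the means of 3; after CD40L Ms4a6c and the sum were higher and BE692007 lower than in ex vivo follicular cells.

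The other members responded to CD40L differently from each other. Over Sh3gl1-/- cells 3 of the 7 genes passed the test, with Ms4a6c and Ms4a7 up and Ms4a4b down, against 44.5% of all genes tested, 21.9% higher and 22.6% lower. In WT cells, the contrast that chose the list, 4 of 7 were past the same threshold (background 49.3%), and nothing is read from that count. The WT log2 fold changes were 1.59 ± 0.62 for Ms4a6d and 1.38 ± 0.46 for Ms4a7, and those of Ms4a6c and Ms4a4b stand beside their values. Ms4a4b, at 122.3, 93.2 and 112.2 CPM in Sh3gl1-/- follicular cells, was at 24.08, 20.14 and 19.99 CPM after culture (log2 fold change -2.37 ± 0.14, adjusted p = 2.2e-07 by edgeR), with no overlap. In WT cells it was 56.3, 62.4 and 77.9 CPM before and 16.15, 14.98 and 11.08 CPM after, a log2 fold change of -2.25 ± 0.17. Its near-identical neighbour Ms4a4c did not follow it. Ms4a4c was at 774.5, 781.3 and 842.0 CPM in Sh3gl1-/- follicular cells and at 961.3, 995.4 and 799.0 CPM after culture (0.18 ± 0.10, adjusted p = 0.18 by edgeR). Its rise passed with limma at both pseudocounts (0.251, adjusted p = 0.043). It also passed without the number 3 cultured Sh3gl1-/- library (0.274, adjusted p = 0.038 by edgeR).

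The CD20 gene did not pass the test. Ms4a1 was at 2019, 2155 and 2229 CPM in Sh3gl1-/- follicular cells and 2466, 2228 and 2328 CPM after culture, with a log2 difference of 0.11 ± 0.08 (95% interval -0.04 to 0.26, adjusted p = 0.27 by edgeR). In WT cells the means were 2583 and 2598 CPM. By TPM the WT values were lower after culture, 985.5 to 1083 before and 862.5 to 949.6 after, without overlap. The Sh3gl1-/- TPM overlapped, at 783.6 to 865.8 before and 821.8 to 898.9 after. Ms4a6b, the neighbour of Ms4a6c with the shared promoter run, had a log2 difference of -0.22 ± 0.11 in Sh3gl1-/- cells (adjusted p = 0.14 by edgeR) and 0.01 ± 0.16 in WT cells, and was at 83.4 to 130.7 CPM in all 12 follicular libraries.

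The rarest members had few reads behind their values. Ms4a7 had 10 to 24 counts in the 6 ex vivo follicular libraries and 34 to 75 after CD40L. In Sh3gl1-/- cells it went from 1.35, 1.15 and 1.58 CPM to 5.30, 2.72 and 2.76 CPM, a log2 fold change of 1.37 ± 0.41 (adjusted p = 0.017 by edgeR), and the call was lost without the number 1 cultured library or the number 2 ex vivo library of Sh3gl1-/- mice, and with both number 1 libraries left out (0.998 ± 0.53, adjusted p = 0.19 by edgeR). Ms4a6d, at 1.29 to 2.18 CPM before and 0.627 to 3.04 CPM after, overlapped between these groups (0.07 ± 0.55). In WT cells it was 0.247 to 1.13 CPM before and 1.35 to 2.21 CPM after.

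No listed gene differed in its response to CD40L between the genotypes past the test, and neither did any of 14460 genes (background 0%; edgeR gave 1278 genes an unadjusted p under 0.05, and DESeq2 called 37 genes). The response of Ms4a6c was 0.38 ± 0.16 smaller on the log2 scale in Sh3gl1-/- cells, with a 95% interval of the difference of -0.70 to -0.07 and an adjusted p of 0.54 by edgeR. The gene was chosen for its WT response, which favours a smaller one in the other genotype, and the difference of the sums with BE692007 was 0.17 ± 0.16. For Ms4a4b the difference was -0.12 ± 0.23, for Ms4a1 0.13 ± 0.10 and for Ms4a4c 0.28 ± 0.15.

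**Figure D4:**
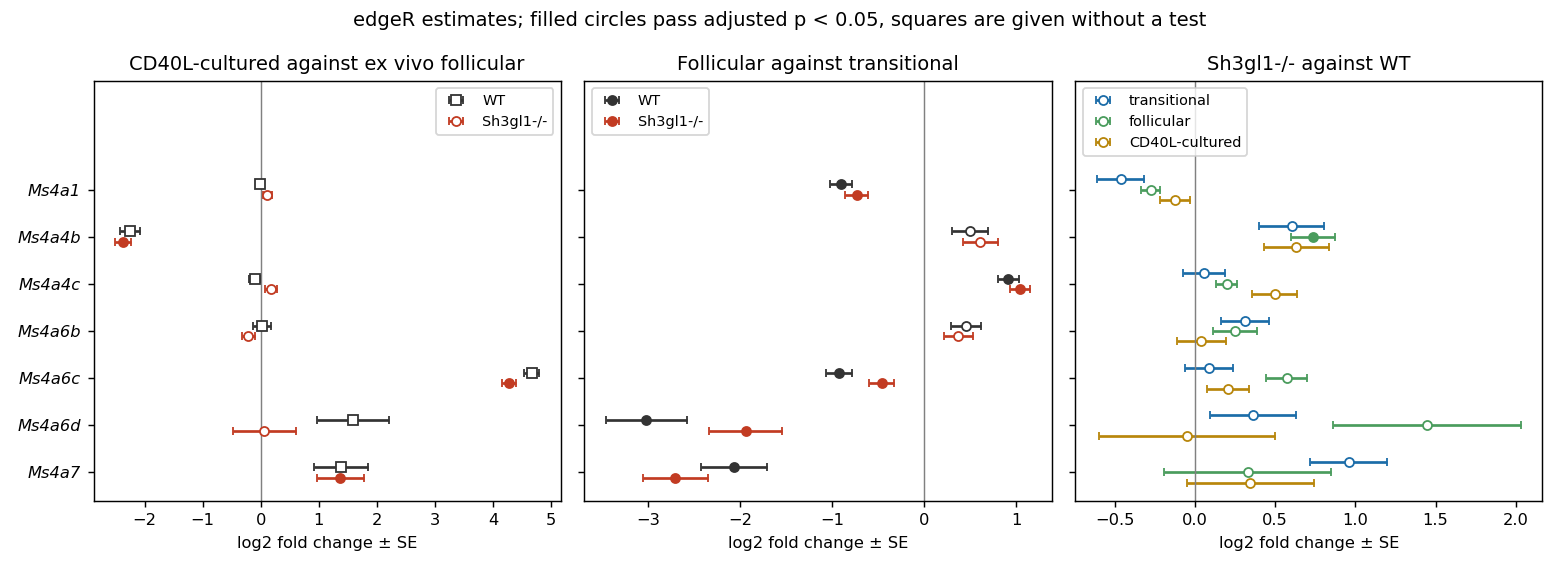
Log2 fold changes ± SE from edgeR of the 7 genes: CD40L-cultured against ex vivo follicular cells, follicular against transitional cells, and Sh3gl1-/- against WT cells of each state. Filled circles passed an adjusted p under 0.05, open circles did not, and the squares of the WT response to CD40L, used to choose the genes, are given without a test. In the first panel Ms4a6c lies at 4.28 and 4.67 and Ms4a4b at -2.37 and -2.25.

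Between transitional and follicular cells the abundant members moved in opposite directions. In WT mice 5 of the 7 genes passed the test, 1 up and 4 down, against 25.9% of all genes (11.7% higher and 14.2% lower). In Sh3gl1-/- mice the count was also 5, 1 up and 4 down, against 10.4% (3.7% higher and 6.71% lower). Ms4a1 was at 4297, 4914 and 5373 CPM in WT transitional and 2444, 2591 and 2714 CPM in WT follicular cells, a fall of 1.87-fold (log2 fold change -0.91 ± 0.12, adjusted p = 0.00018 by edgeR). Ms4a4c rose from 328.4, 397.5 and 386.6 to 682.3, 697.4 and 709.7 CPM (0.92 ± 0.11, adjusted p = 6.2e-05 by edgeR). In neither gene did the WT groups overlap. In Sh3gl1-/- mice Ms4a1 fell by 0.73 ± 0.12 on the log2 scale (adjusted p = 0.0016) and Ms4a4c rose by 1.04 ± 0.11 (adjusted p = 3.9e-05 by edgeR).

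Ms4a6c fell on its own but not in sum with BE692007. In WT mice it was 36.5, 36.2 and 38.2 CPM in transitional cells and 21.3, 18.7 and 18.1 CPM in follicular cells (-0.93 ± 0.14, adjusted p = 4e-04 by edgeR). These WT follicular libraries were also used to choose the gene by its response to CD40L, and low values in them favour a fall. The WT test is therefore not separate from the choice. Summed with BE692007 the WT values were 286.2 to 302.2 and 345.6 to 391.3 CPM, a rise of 0.30 ± 0.07 on the log2 scale (adjusted p = 0.0069 by edgeR). In Sh3gl1-/- mice Ms4a6c fell too (-0.46 ± 0.14, adjusted p = 0.048 by edgeR), and the sum did not pass the test (-0.04 ± 0.07, adjusted p = 0.78 by edgeR). The Sh3gl1-/- call was also lost with RLE scaling (adjusted p = 0.051), with limma, with each single library of Sh3gl1-/- mice left out other than the number 2 transitional one, and with both number 1 libraries left out (adjusted p = 0.31).

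Ms4a6d and Ms4a7 were low in follicular cells, along with macrophage transcripts. Ms4a7 was at 5.26, 4.54 and 3.79 CPM in WT transitional and 0.843, 0.618 and 1.81 CPM in WT follicular cells (-2.07 ± 0.36, adjusted p = 0.0011 by edgeR), and Ms4a6d fell from 3.90, 5.21 and 6.16 to 0.519, 0.247 and 1.13 CPM (-3.02 ± 0.44, adjusted p = 0.00029 by edgeR). In Sh3gl1-/- mice the log2 changes were -2.71 ± 0.36 and -1.94 ± 0.40 (adjusted p = 0.00023 and 0.0055 by edgeR). Of 13 monocyte and macrophage markers, 13 were lower in WT follicular than in transitional cells and 11 in Sh3gl1-/- mice. Their summed level was 718.9 to 1274 CPM in the transitional, 135.9 to 328.2 CPM in the ex vivo follicular and 53.9 to 102.9 CPM in the cultured libraries. The part of these cells in the fall of Ms4a6d and Ms4a7 was not tested. After CD40L Fcgr1 and C1qa were at 0 in all 3 WT libraries and at no more than 1 count in Sh3gl1-/- libraries, and the sum of Csf1r, Fcgr1, C1qa, C1qb and C1qc was at most 2.51 CPM, while Ms4a7 was at 2.08 to 5.30 CPM and Ms4a6c at 445.2 CPM or more. Adgre1, another marker of the list, was at 30.9 to 78.4 CPM in these libraries, against 4.15 to 9.84 CPM in ex vivo follicular cells.

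Ms4a4b and Ms4a6b were higher in follicular than in transitional cells without passing the test, at 0.50 ± 0.20 (adjusted p = 0.078) and 0.45 ± 0.16 (adjusted p = 0.054) on the log2 scale in WT mice and at 0.61 ± 0.19 (adjusted p = 0.059) and 0.37 ± 0.16 (adjusted p = 0.17 by edgeR) in Sh3gl1-/- mice. The replicate numbers paired these libraries, and with the number as a block both genes passed in both genotypes, Ms4a4b with an adjusted p of 0.0015 and 0.00053 and Ms4a6b with 0.0033 and 0.012 by edgeR. With that block 29.1% of all genes passed in WT and 13.4% in Sh3gl1-/- mice. The change from transitional to follicular cells did not differ between genotypes past the test for any listed gene, against 0.0686% of all genes (0.048% higher and 0.0206% lower). For Ms4a6c the difference was 0.47 ± 0.20 (adjusted p = 0.32) and for Ms4a1 0.17 ± 0.17 (adjusted p = 0.71 by edgeR). The choice of Ms4a6c used the WT follicular libraries, where low values favour a difference of this sign.

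Between Sh3gl1-/- and WT cells of the same state, 1 gene of the list passed the test in 1 state. Ms4a4b in follicular cells was at 56.3, 62.4 and 77.9 CPM in WT and 122.3, 93.2 and 112.2 CPM in Sh3gl1-/- mice, 1.67-fold higher (log2 fold change 0.74 ± 0.14, adjusted p = 0.034 by edgeR), where 0.845% of all genes passed, 0.485% higher and 0.36% lower. The groups did not overlap, but the call was lost when the number 1 or 2 WT library or the number 1 or 3 Sh3gl1-/- library was left out. It was also lost in 1 fit over all 18 libraries and with limma. In transitional cells (background 3.73%, 1.26% higher and 2.48% lower) its log2 difference was 0.60 ± 0.20 (adjusted p = 0.13) and after CD40L (background 0.0227%) 0.63 ± 0.20 (adjusted p = 0.59 by edgeR). No other listed gene passed in any state.

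T cell transcripts moved with Ms4a4b in every comparison. The summed level of 11 T cell markers was 112.3 to 137.9 CPM in WT and 187.3 to 252.1 CPM in Sh3gl1-/- follicular cells, 68.1 to 103.9 and 108.3 to 166.6 CPM in transitional cells, and 29.8 to 31.5 and 43.5 to 54.7 CPM after CD40L. Of the 11, 3 passed the test between the genotypes in follicular cells (Cd3e, Cd3d and Lat, all higher in Sh3gl1-/- mice), and all 11 fell with CD40L in Sh3gl1-/- cells. No defining marker was at 0: Cd3e had at least 22 counts, Cd3d 26 and Cd3g 33 in every library. Ms4a4b divided by the sum of Cd3e, Cd3d and Cd3g was 1.14 to 1.60 in all 12 ex vivo libraries, over which Ms4a4b itself went from 36.5 to 122.3 CPM, and it was 1.22 to 2.89 after CD40L. Within ex vivo cells the ratio was lower in Sh3gl1-/- mice (1.14 to 1.32) than in WT mice (1.38 to 1.60). The part of T cells in the differences of Ms4a4b was not tested. By contrast Ms4a4c, which shares most of its coding sequence with Ms4a4b, was 774.5 to 842.0 CPM in Sh3gl1-/- and 682.3 to 709.7 CPM in WT follicular cells (0.20 ± 0.06, adjusted p = 0.24 by edgeR).

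**Figure D5:**
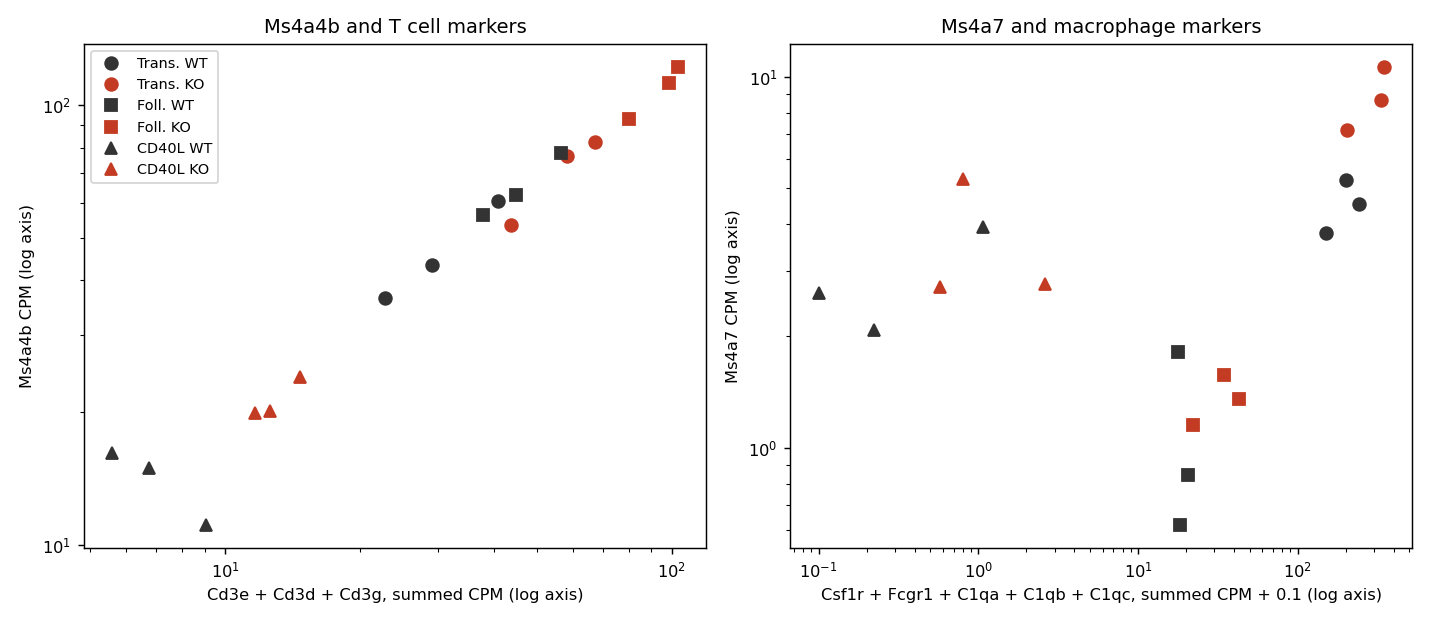
Left, Ms4a4b CPM against the summed CPM of Cd3e, Cd3d and Cd3g; right, Ms4a7 CPM against the summed CPM (plus 0.1) of Csf1r, Fcgr1, C1qa, C1qb and C1qc. Each point is 1 of 18 libraries on log axes; Ms4a4b followed the T cell markers through all groups, and Ms4a7 was at 2.08 to 5.30 CPM in the CD40L-cultured libraries, where these 5 macrophage markers were at most 2.51 CPM. Adgre1 was left out of the sum, since it was at 30.9 to 78.4 CPM in these libraries, where the full list of 13 summed to 53.9 to 102.9 CPM.

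The CD20 gene was lower in Sh3gl1-/- mice, short of the test. In follicular cells Ms4a1 was 2444 to 2714 CPM in WT and 2019 to 2229 CPM in Sh3gl1-/- mice, without overlap (-0.28 ± 0.06, adjusted p = 0.069 by edgeR). In transitional cells Sh3gl1-/- libraries were at 3192, 4450 and 2918 CPM, and the highest overlapped the WT range (-0.46 ± 0.15, adjusted p = 0.11). Without that library the difference passed (-0.67, adjusted p = 0.020 by edgeR), and with DESeq2 it passed in both states (adjusted p = 0.019 in transitional and 0.018 in follicular cells). Several sums of B cell markers were lower too. In follicular cells 7 general B cell markers summed to 10380 to 10750 CPM in WT and 9530 to 10170 CPM in Sh3gl1-/- mice. There 6 transitional B cell markers summed to 374.3 to 458.9 and 298.9 to 312.8 CPM, and 6 marginal zone markers to 210.6 to 268.1 and 177.9 to 184.3 CPM. None of the general B cell or marginal zone markers passed the test in follicular cells. Of the 3 transitional markers that passed the filter, 1 was lower past the test (0.36% of all genes were). The sums of follicular and plasma cell markers overlapped. In transitional cells the summed level of the 6 transitional B cell markers was 875.0 to 1010 CPM in WT and 505.5 to 804.1 CPM in Sh3gl1-/- mice, with 1 of the 4 that passed the filter lower past the test (Cd24a). That of 6 marginal zone B cell markers was 380.0 to 402.4 and 227.6 to 274.9 CPM, with 2 of 6 lower (Cd1d1 and Pik3r4). Of 6 plasma cell markers 1 passed, Jchain, the joining chain of secreted antibodies, at 406.4 to 648.7 CPM in WT and 1066 to 4518 CPM in Sh3gl1-/- mice, while Sdc1 was at 2.39 to 3.35 and 1.15 to 4.31 CPM. The part of these in the differences of Ms4a1 was not tested. After CD40L the difference was -0.12 ± 0.09 (adjusted p = 0.78 by edgeR). Ms4a6c in follicular cells (0.57 ± 0.13, adjusted p = 0.075 by edgeR) and Ms4a7 in transitional cells (0.96 ± 0.24, adjusted p = 0.061 by edgeR) were higher in Sh3gl1-/- mice without overlap, and also short of the test. The WT follicular libraries were part of the response that chose Ms4a6c, and low values in them favour such a difference. The 13 monocyte and macrophage markers summed to 718.9 to 978.1 CPM in WT and 749.1 to 1274 CPM in Sh3gl1-/- transitional cells, and none of them passed the test between genotypes. In follicular cells they summed to 135.9 to 171.8 CPM in WT and 143.4 to 328.2 CPM in Sh3gl1-/- mice, with overlap. Csf1r, Fcgr1, C1qa, C1qb, C1qc and Adgre1 summed to 25.4 to 27.6 and 26.2 to 52.5 CPM, also with overlap. Without Adgre1, which belongs to this set of defining markers, the sums were 17.8 to 20.4 and 22.1 to 42.7 CPM, without overlap. None of the 10 monocyte and macrophage markers that passed the filter in follicular cells passed the test between genotypes. What part these markers had in the differences of Ms4a6c and Ms4a7 was not tested. For Ms4a6c summed with BE692007 the follicular difference was 0.05 ± 0.08. After CD40L the largest statistic among the 7 was that of Ms4a4c, 574.5 to 744.3 CPM in WT and 799.0 to 995.4 CPM in Sh3gl1-/- cells (0.50 ± 0.14, adjusted p = 0.51 by edgeR).

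The genes whose levels were most like those of each member, by Pearson's r of log2 CPM over the 18 libraries among 15116 genes, differed from member to member. For Ms4a6c they were Hmgn3 (r = 0.991), Fas (0.983) and Gm37223 (0.982), where Fas codes for a death receptor that activated B cells display. Gm37223 was nearly absent ex vivo, with group means of at most 0.087 CPM, and was at 2.19 and 2.24 CPM after CD40L. Its r thus mainly sets cultured against uncultured libraries. For Ms4a4b they were Cd3g (0.987), Trbc2 (0.985) and Trac (0.985), all components of the T cell receptor complex. For Ms4a6d the first was Aif1 (0.915), a macrophage gene, followed by Tmem263 and Cpq, and for Ms4a7 the genes were E230029C05Rik (0.915), Lipa (0.912) and Pon3 (0.868). For Ms4a1 they were Mfap3 (0.947), Edaradd (0.946) and Cib1 (0.941), for Ms4a4c 5830408C22Rik (0.931), Vkorc1 (0.920) and Ralgds (0.913), and for Ms4a6b Gm42736 (0.850), mt-Nd1 (0.842) and Atp1b3 (0.832). Among the 21 pairs of members r went from -0.883 (Ms4a4b and Ms4a6c) to 0.835 (Ms4a6d and Ms4a7), and for the closest duplicates, Ms4a4b and Ms4a4c, it was -0.170. The libraries of a group share their cell state, so that these values describe the 6 group levels more than 18 separate points.

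Genes connected with CD20 gave the following counts. Of 14 genes whose products associate with CD20 or with the B cell receptor, 2 rose and 9 fell with CD40L in Sh3gl1-/- cells (21.9% and 22.6% of all genes did; median log2 fold change -0.42, all genes -0.02), with Cd40 at 1.10 ± 0.11 and Cd79b, a signalling chain of the receptor, at -1.12 ± 0.08 (adjusted p = 9.1e-06 and 1.1e-06 by edgeR). From WT transitional to follicular cells 6 of the 14 rose and 4 fell (11.7% and 14.2% of all genes), and H2-Eb1, a chain of MHC class II, rose by 0.64 ± 0.05 (adjusted p = 3.5e-06 by edgeR) while Ms4a1 fell. Between genotypes 2 of the 14 passed in follicular cells (0.845% of all genes), H2-Eb1 (0.29 ± 0.05, adjusted p = 0.018) and Cd74 (0.16 ± 0.03, adjusted p = 0.026 by edgeR), and 2 in transitional cells (3.73% of all genes), H2-Eb1 and H2-Aa, all higher in Sh3gl1-/- mice.

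Of 13 transcription factors known from the Ms4a1 promoter or from B cell identity, 1 rose and 5 fell with CD40L in Sh3gl1-/- cells (21.9% and 22.6% of all genes), where Ms4a1 did not pass the test. Irf4, which drives plasma cell fate, rose by 1.66 ± 0.15 (adjusted p = 4.7e-06 by edgeR) and Foxo1 fell (-1.67 ± 0.15, adjusted p = 4.1e-06 by edgeR). From transitional to follicular cells Spib, an Ets factor related to PU.1, fell along with Ms4a1 (-1.16 ± 0.17, adjusted p = 0.00025 in WT and -1.01 ± 0.17, adjusted p = 0.0013 in Sh3gl1-/- mice by edgeR). Between genotypes only Ikzf1 passed, in transitional cells (-0.39 ± 0.08, adjusted p = 0.033 by edgeR).

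Tetraspanins are the other large family of proteins with 4 membrane spans. Of 21 tetraspanin genes 16 passed the filter in Sh3gl1-/- follicular cells, and 3 rose and 4 fell with CD40L, against 44.5% of all genes called in either direction, with Cd82 at 1.88 ± 0.17 and Tspan33 at 4.50 ± 0.44 on the log2 scale (adjusted p = 4.7e-06 and 1.1e-05 by edgeR). The rise of Tspan33 was close in size to that of Ms4a6c. No tetraspanin gene passed the test between genotypes in any state.

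Of the 12 Ms4a genes that were not listed, 6 had no more than 1 count in any library and 5 of those had none at all. Ms4a4a, which lies between Ms4a7 and Ms4a4c, was the best measured, with 11 to 219 counts. It was at 4.10, 5.59 and 7.42 CPM in WT and 12.8, 12.4 and 13.2 CPM in Sh3gl1-/- transitional cells, 2.25-fold higher (1.17 ± 0.23, adjusted p = 0.032 by edgeR). In follicular cells it was 3.89 to 4.59 CPM in WT and 8.02 to 9.09 CPM in Sh3gl1-/- mice (1.04 ± 0.22, adjusted p = 0.064), and after CD40L 0.673 to 1.27 and 2.19 to 4.24 CPM (1.76 ± 0.44, adjusted p = 0.38 by edgeR). In all 3 states the genotypes did not overlap, but the call in transitional cells was lost without the number 1 or 2 WT library or the number 1 or 3 Sh3gl1-/- library. With CD40L it fell in Sh3gl1-/- cells (-1.48 ± 0.29, adjusted p = 0.0016 by edgeR). Ms4a4d rose from WT transitional to follicular cells (2.44 ± 0.83, adjusted p = 0.043 by edgeR), at no more than 1.36 CPM in these libraries. Ms4a8a and Ms4a14, with at most 34 and 15 counts in a library, passed no test.

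Within 200 kb of the listed genes the annotation has 24 other genes in the table, of which 8 to 10 passed the filter. With CD40L 1 rose and 4 fell in Sh3gl1-/- cells, against 21.9% and 22.6% of all genes: Mrpl16 rose (0.55 ± 0.11, adjusted p = 0.0017) and Gm8369 (-2.17 ± 0.12, adjusted p = 1.6e-07), AW112010, BE692007 and Gm5511 fell (all by edgeR). BE692007 was the 1 neighbour that differed between genotypes, in transitional cells, at 258.3 ± 7.36 CPM in WT and 344.8 ± 10.2 CPM in Sh3gl1-/- mice (0.42 ± 0.08, adjusted p = 0.026 by edgeR). There its sum with Ms4a6c passed too (0.38 ± 0.08, adjusted p = 0.035 by edgeR), whereas Ms4a6c alone did not (0.09 ± 0.15, adjusted p = 0.77 by edgeR).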

How the data were processed

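RNA-seq of 18 libraries (6 groups of 3 mice) was analysed. Per the labels the submitters' processing used cutadapt 1.9.1, STAR 2.5.2a, RSEM 1.3.0 and GRCm38, whereas the study's methods name TopHat and Cufflinks and another library kit; the strand setting is not given in the sources used here. The deposited expected counts are the authors' RSEM estimates per gene, not normalized, and the deposited TPM are the authors' RSEM estimates of transcript abundance scaled to a fixed total. The deposited FPKM columns, also RSEM estimates of the authors, were not used.

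Expected counts were rounded. Tests used edgeR 4.0.16 in R 4.3.3 (TMM, filterByExpr, glmQLFit, glmQLFTest), with Benjamini-Hochberg adjustment over all genes tested and a call at an adjusted p under 0.05. The response of Sh3gl1-/- cells to CD40L was fitted on its 6 libraries, genotype comparisons within each state, and the other comparisons on the 12 libraries of both genotypes. SE is the log2 fold change divided by the square root of F, and intervals are ± 1.96 SE. CPM use TMM-scaled library sizes. The edgeR script was tested on simulated data. Alternatives were DESeq2 1.42.0, limma 3.58.1 on log2(TPM + 1) and log2(TPM + 0.1), RLE scaling, other filters, 1 fit over 18 libraries, a replicate block and leaving out libraries; the sum of Ms4a6c with BE692007 and the fit without both number 1 Sh3gl1-/- libraries were chosen after seeing the data.

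Same-numbered libraries of a genotype deviated together between transitional and follicular cells (correlation of deviations 0.103 to 0.242 in WT and 0.115 to 0.263 in Sh3gl1-/- mice, over 15117 genes), so that the numbers were taken to pair them there. In the response to CD40L they did so in WT (0.136 to 0.224) and more weakly in Sh3gl1-/- mice (0.030 to 0.119). In both genotypes all 3 ex vivo libraries correlated best with the cultured library of their own number.

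Symbols and positions came from GENCODE M21. Promoters came from RefSeq (GRCm38.p6), and coding sequences were aligned globally. The members, the gene lists and the tests were chosen with earlier results of these data known. Genes were named by rule: all listed genes, other Ms4a genes that reached the filter, genes of the lists and neighbours that were called, and the 3 genes most like each member. Within-group library pairs differed by 9.88 to 52.4 times the counting noise in variance, and none was taken for a repeat. Intervals cover the spread between the 3 mice of a group.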

Additional observations from a re-analysis of the deposited data

How the results depend on the processing

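Counts of listed genes called stayed within 1.5 times for both changes from transitional to follicular cells, the Sh3gl1-/- response to CD40L and the differences between genotypes in these, under every alternative run. For Sh3gl1-/- against WT transitional cells 0 became 3 with DESeq2 and with the filter of at least 1 count, 1 with Ms4a6c and BE692007 summed, and 0 to 1 when single libraries were left out. For follicular cells 1 became 3 with DESeq2 and with the filter of at least 1 count, 2 with the replicate block, 0 in 1 fit over 18 libraries and 0 with limma at both pseudocounts, and 0 to 1 without single libraries. For CD40L-cultured cells 0 became 1 with the filter of at least 1 count, and the WT response to CD40L gave 2 to 4 without single libraries (2 without the number 1 or 2 ex vivo or the number 1 cultured WT library). The replicate block changed no other count of listed genes by over 1.5 times, and across genotypes the numbers did not pair (mean correlation -0.015 in follicular cells). The sum of Ms4a6c with BE692007 had the opposite sign to Ms4a6c alone for WT follicular against transitional cells (0.30). It did so too for the genotype difference in that change (-0.35) and for that in the response to CD40L (0.17). The ex vivo sum was mostly BE692007, so that these signs are not those of Ms4a6c itself. Genes that passed in neither fit changed sign as follows. Ms4a6d in the Sh3gl1-/- response went to -0.018 and -0.113 (limma), -0.096 (replicate block) and -0.49 to 0.49 without single libraries. In the genotype difference of that response Ms4a7 went to 0.007 (at least 1 count) and -0.55 to 0.31 (single libraries), and Ms4a4b to 0.023 and 0.048 (limma) and -0.269 to 0.011 (single libraries). In transitional cells Ms4a4c went to -0.039 with limma at both pseudocounts and -0.079 to 0.179 (single libraries) and Ms4a6c to -0.024 with limma at both and -0.063 to 0.243 (single libraries). After CD40L Ms4a6d went to 0.00 with limma at log2(TPM + 1), and without single libraries Ms4a6d went from -0.63 to 0.37, Ms4a6b from -0.040 to 0.185 and Ms4a7 from -0.045 to 0.627. In the genotype difference of the change from transitional to follicular cells Ms4a6b went to 0.18 and 0.19 (limma), 0.001 (both number 1 Sh3gl1-/- libraries left out) and -0.22 to 0.10 (single libraries), Ms4a4b to -0.11 to 0.27 and Ms4a4a to -0.38 to 0.05. Over all genes, calls between genotypes moved most: with DESeq2 they went from 514 to 1361 in transitional, 115 to 355 in follicular and 3 to 79 in CD40L-cultured cells, from 0 to 37 for the difference in the response to CD40L and from 10 to 365 for that in the change from transitional to follicular cells. With the filter of at least 1 count these were 1426, 602, 216, 210 and 462, in 1 fit over 18 libraries 144, 49, 82, 0 and 0, with limma at log2(TPM + 1) 182, 64, 2, 0 and 0, with limma at log2(TPM + 0.1) 167, 41, 1, 0 and 0, and with the replicate block 90, 212, 21, 0 and 99. Leaving out both number 1 Sh3gl1-/- libraries took the Sh3gl1-/- response to CD40L from 6006 to 3682 genes, the Sh3gl1-/- change from transitional to follicular cells from 1518 to 730 and its difference between genotypes from 10 to 0. Without single libraries calls between genotypes were 28 to 479 in transitional, 32 to 112 in follicular and 1 to 9 in CD40L-cultured cells. The causes were not tested. With 10 to 24 counts in ex vivo follicular libraries, Ms4a7 is limited by depth, and Ms4a6d, with 4 to 29, more so.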
